A study of Mus musculus with 8 samples.

Results

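The genes Gata2, Tal1, Lyl1, Lmo2, Erg, Fli1, Meis1, Hoxa9, Hlf and Mecom encode transcription factors, or in the case of Lmo2 a bridging protein, that are known for their work in hematopoietic stem cells. They were chosen by name and followed as 10 of the 19573 genes that could be given a symbol in the files. All 10 were found. Mutant mice, called Dido1∆E16, carried Dido1flE16/∆E16;R26R-EYFP;iCreVav1, so that Cre, driven by the Vav1 promoter in blood-forming cells, removed exon 16 of the remaining Dido1 allele. Their littermate controls, called WT here as in the labels, carried Dido1flE16/+;R26R-EYFP;iCreVav1 and thus shared the Cre, the EYFP reporter and 1 floxed allele. Mice of both groups were on C57BL/6 and 6 to 10 weeks old. LSK cells (lin- Sca1+ cKit+ bone marrow progenitors) gave 2 Omni-ATAC-seq libraries per genotype, in which a transposase had tagged open DNA. Sorted pre-B cells gave 2 RNA-seq libraries per genotype, each from a pool of 2 to 3 mice. The chromatin and RNA values therefore come from different cell types, and accessibility cannot be set beside RNA of the same cells.

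The libraries differed in depth and in the number of accessible regions called. The WT LSK libraries held 10249256 tags (replicate 1) and 52050898 tags (replicate 2), and the mutant ones 22533077 (replicate 1) and 44633938 (replicate 2). MACS2, the peak caller used for the comparisons here, called from 27352 to 57739 peaks per WT library and from 13208 to 16329 per mutant library. In what follows, the values of a genotype are given with replicate 1 before replicate 2. The progenitor marker genes Kit, Cd34 and Flt3 had a MACS2 peak in all 4 libraries, while Procr and Ly6a had none in either mutant library. In the pre-B RNA the deleted exon checked the labels. Exon 16 of Dido1, the last exon of transcript uc008ojq.2, had a coverage scaled to TPM (a level per transcript length that is set to a fixed total in each library) of 24.6 and 21.8 in WT and of 0.295 and 0.0843 in Dido1∆E16. The pre-B genes Cd79a, Cd79b, Pax5 and Rag1 lay between 695 and 4476 TPM in all 4 libraries. Of other pre-B markers, Ebf1 and Rag2 lay between 3.17 and 36.9 TPM by the authors' symbols and between 165 and 465 TPM when symbols were extended to transcripts that share exons with a named gene. Vpreb1, Vpreb2 and Igll1, which are used most in the earlier stages of the lineage, had log2 fold changes of 3.81, 3.94 and 2.37 and were not called. Markers of other cells differed between the libraries, above all in Dido1∆E16 replicate 2. The summed TPM of 6 erythroid genes was 301 and 922 in WT and 677 and 8641 in Dido1∆E16, and that of 7 neutrophil and monocyte genes was 183 and 1732 in WT and 828 and 7209 in Dido1∆E16. In both data sets a lower value can mean fewer cells of a type or less signal per cell, which bulk samples cannot tell apart.

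GATA2, TAL1, LYL1, LMO2, ERG and FLI1, together with RUNX1, are known to occupy many of the same enhancers in blood stem and progenitor cells. GATA2 is a zinc-finger factor, TAL1 and LYL1 are related basic helix-loop-helix factors that bind E-boxes with an E-protein partner, LMO2 holds such partners together without touching DNA, and ERG and FLI1 are ETS factors. MEIS1 and HOXA9 are homeobox proteins that bind DNA together, HLF is a PAR bZIP factor, and Mecom encodes the zinc-finger protein EVI1. Most of these genes are known to be silenced as progenitors become B cells, while Fli1, Lyl1 and Erg are known to be used in early B cells as well.

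The sequences of 7 regions at 7 of these genes were read from GRCm38/mm10, since the results below turn on them. Those of Gata2 to Mecom are 200 bases of a peak of WT replicate 2, at its centre or, for Gata2, at its start where an E-box lies beside a GATA motif. That of Erg holds the 250 bases before the start of a shorter Erg transcript, as RefSeq places it. Capitals mark matches on either strand to the motifs searched. For GATA these were AGATAA and TGATAA. The ETS motif was searched as CCGGAA and as AGGAAG. RUNX was searched by the letters TGTGGT. The HOX-MEIS motif was TGATTNAT. PAR bZIP factors were given TTACGTAA, and also TTATGTAA. The composite motif was an E-box, CANNTG, followed at a distance of 7 to 9 bases by the letters GATAA, which can be part of a GATA match as well.
Gata2 intron 4, chr6:88203133-88203332, plus strand: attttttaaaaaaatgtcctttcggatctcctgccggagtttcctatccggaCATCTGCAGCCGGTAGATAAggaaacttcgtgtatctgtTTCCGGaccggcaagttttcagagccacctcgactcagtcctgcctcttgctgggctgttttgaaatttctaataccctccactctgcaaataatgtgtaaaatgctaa
Lyl1 upstream, chr8:84699958-84700157, plus strand: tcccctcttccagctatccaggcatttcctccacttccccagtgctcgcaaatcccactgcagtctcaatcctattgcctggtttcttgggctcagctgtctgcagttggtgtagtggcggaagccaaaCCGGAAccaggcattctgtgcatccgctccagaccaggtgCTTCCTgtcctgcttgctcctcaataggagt
Lmo2 upstream, chr2:103944951-103945150, plus strand: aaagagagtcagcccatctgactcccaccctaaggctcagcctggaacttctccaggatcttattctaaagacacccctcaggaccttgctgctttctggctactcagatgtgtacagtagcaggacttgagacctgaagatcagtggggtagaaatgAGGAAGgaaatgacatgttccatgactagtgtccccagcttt
Meis1 intron 8, chr11:18924962-18925161, plus strand: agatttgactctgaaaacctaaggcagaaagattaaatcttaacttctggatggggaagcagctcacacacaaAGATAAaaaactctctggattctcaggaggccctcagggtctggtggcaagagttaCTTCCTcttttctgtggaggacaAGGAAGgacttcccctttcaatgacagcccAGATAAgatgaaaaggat
Hlf upstream, chr11:90419940-90420139, plus strand: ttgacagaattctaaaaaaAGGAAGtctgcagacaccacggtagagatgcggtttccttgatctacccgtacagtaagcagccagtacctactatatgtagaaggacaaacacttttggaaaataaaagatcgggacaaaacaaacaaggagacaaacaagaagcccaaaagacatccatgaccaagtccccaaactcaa
Mecom intron 2, chr3:30508310-30508509, plus strand: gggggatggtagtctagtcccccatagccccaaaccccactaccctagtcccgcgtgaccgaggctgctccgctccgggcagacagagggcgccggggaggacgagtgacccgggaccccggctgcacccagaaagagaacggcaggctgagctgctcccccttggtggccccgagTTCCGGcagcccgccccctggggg
Erg downstream promoter, chr16:95459349-95459598, minus strand: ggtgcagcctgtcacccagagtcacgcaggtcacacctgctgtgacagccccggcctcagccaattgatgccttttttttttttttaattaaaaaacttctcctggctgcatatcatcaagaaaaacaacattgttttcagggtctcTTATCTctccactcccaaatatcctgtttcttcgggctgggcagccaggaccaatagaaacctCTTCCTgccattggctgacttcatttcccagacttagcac

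The Gata2 window held the sequence CATCTGCAGCCGGTAGATAA at chr6:88203185-88203204, an E-box with a GATA motif 9 bases on, inside the intron known to carry a stem cell enhancer of this gene. Over windows of 400 bases centred on the 57739 peaks of WT replicate 2, this composite occurred in 1.18%, and in 1 of the 87 windows at the 10 genes (1.15%). GATA motifs were found in 32 of the 87 windows (36.8%) and in 26.8% of all windows. ETS motifs were found in 56 (64.4%) and in 60.8% of all, and RUNX motifs in 27 (31%) and in 32.7% of all. HOX-MEIS motifs were found in 3 (3.45%), at Gata2 and in a pair of Fli1 introns, beside 3.87% of all. No window of the 10 genes held the PAR bZIP motif, which 1.45% of all windows did. A match is a string of letters and not a bound site. The GATA share differed most from that of all windows, and no test of it was made.

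In LSK cells the 10 genes together had fewer MACS2 peaks in each mutant library than in each WT library, as did many other genes. MACS2 peaks that the authors' annotation gave to the 10 genes numbered 33 and 87 in WT, and 11 and 20 in Dido1∆E16. HOMER peaks at these genes numbered 44 and 116 in WT, and 14 and 52 in Dido1∆E16, so that by this caller the genotypes overlapped. By number of peaks per gene, Gata2, Tal1, Lmo2, Erg, Fli1 and Mecom had fewer in both mutant libraries than in either WT library, which is 6 of 10. The same held for 35.6% of the 17769 genes with a peak in any library. That share covers genes with few and with many peaks alike. A gene needs a peak in both WT libraries to meet it, and 76.9% of these genes had 1 or more in WT replicate 1. In WT replicate 2 the share of genes with more peaks ran from 0.445% for Mecom to 61.4% for Hoxa9. The 2 shares are therefore not of like genes. None of the 10 had more peaks in both Dido1∆E16 libraries, against 0.191% of all genes. When the 13208 best-scoring peaks of each library were counted instead, 0 of the 10 had fewer in both mutant libraries, beside 7.16% of all genes. With HOMER peaks 3 had fewer, namely Fli1, Hlf and Mecom, beside 19.5% of all genes. By HOMER, Gata2 had 3 and 4 peaks in WT and 1 and 5 in Dido1∆E16, Lmo2 had 1 and 9 in WT and 0 and 6 in Dido1∆E16, and Erg had 3 and 17 in WT and 0 and 7 in Dido1∆E16. The count therefore moved with the caller and with the number of peaks taken from each library.

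**Figure D1:**
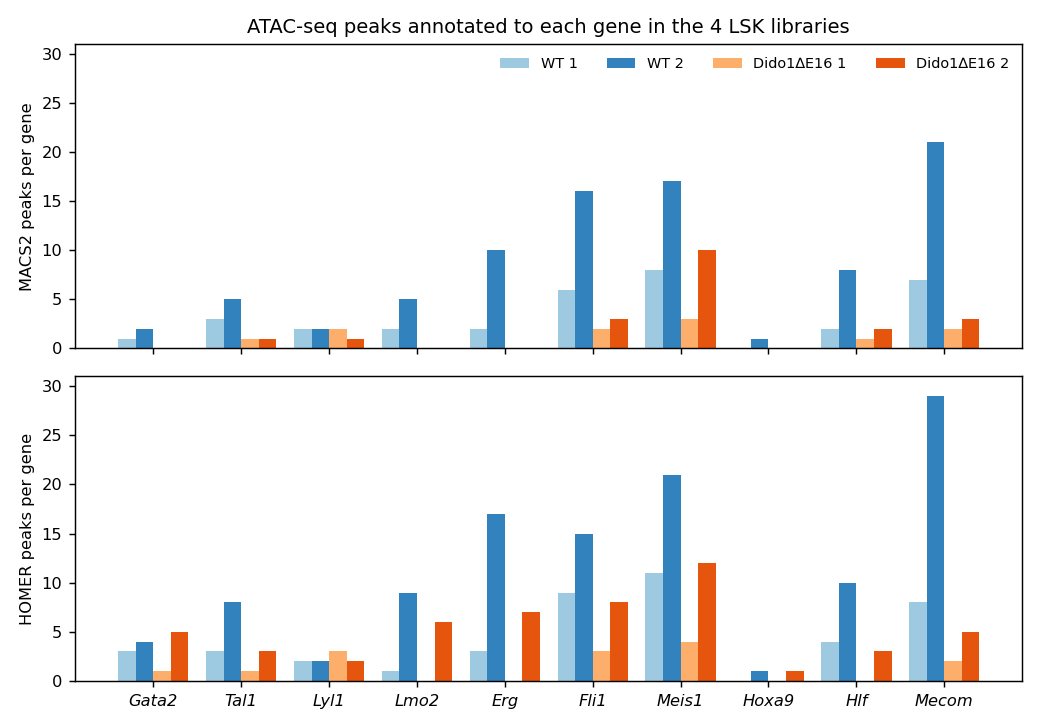
Number of MACS2 peaks (upper panel) and HOMER peaks (lower panel) annotated to each of the 10 genes, with 1 bar per LSK ATAC-seq library and no error bars. In the upper panel Mecom, Meis1 and Fli1 had 21, 17 and 16 peaks in WT replicate 2, and Gata2, Lmo2, Erg and Hoxa9 had 0 in both mutant libraries, while in the lower panel Dido1∆E16 replicate 2 had 5, 6, 7 and 1 at those 4 genes.

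Relative to the peaks of each library, the genes differed less. They took 1.21 and 1.51 of each 1000 MACS2 peaks in WT, and 0.833 and 1.22 in Dido1∆E16. The means were 1.36 in WT and 1.03 in Dido1∆E16, a difference of -0.328 per 1000. The groups overlapped, and a two-sided exact permutation test returned p = 0.667, where 2 libraries against 2 cannot give less than 0.33. When promoter peaks were left out, the values were 1.71 and 1.72 in WT and 1.65 and 2.11 in Dido1∆E16, and the difference turned to 0.167 per 1000 with an exact permutation p of 1. With the better-scoring 50% of each library's peaks the values were 0.951 and 1.18 in WT and 0 and 0.735 in Dido1∆E16, a difference of -0.697 with an exact permutation p of 0.33, so that the groups no longer overlapped. Of all peaks, promoters held 35.8% and 22.6% in WT and 58.8% and 47.8% in Dido1∆E16. At the 10 genes promoters held 3 and 10 peaks in WT and 2 in each mutant library, introns held 17 and 53 in WT and 6 in each mutant library, and intergenic regions held 11 and 21 in WT and 3 and 11 in Dido1∆E16.

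Regions with a MACS2 peak in both WT libraries allow a count that does not depend on the peaks of WT replicate 2 alone. Such regions numbered 31 at 8 of the 10 genes, and Gata2 and Hoxa9 had none. Neither mutant library had a peak over 14 of the 31 (45.2%, exact 95% binomial interval 27.3 to 64.0, for counting error only). Genome-wide 26295 regions were shared in this way and 43.6% of them had no mutant peak, so by MACS2 the share at the 10 genes was near that of the genome. With HOMER peaks the share was 40.9% (18 of 44) beside 29.3% of all regions, and with the better-scoring 50% of peaks it was 55.6% (5 of 9) beside 40.5%. Without Dido1∆E16 replicate 2 it was 67.7% (21 of 31) beside 57.9%. Introns held 16 of the 31 regions, of which 8 lacked a mutant peak, beside 63.3% of all intronic regions. Intergenic regions held 11, of which 5 lacked a mutant peak, beside 59.9% of all intergenic ones. Genome-wide the share without a mutant peak ran from 71.2% in the lowest to 4.98% in the highest of 5 equal classes by WT replicate 1 score. Of the regions at the 10 genes, 5 of 8 in the lowest class and 1 of 2 in the highest had none. The 2 promoter regions by the annotation of WT replicate 1, at Lyl1 and Meis1, had a peak in both mutant libraries, while 14.8% of all shared promoter regions had none.

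**Figure D2:**
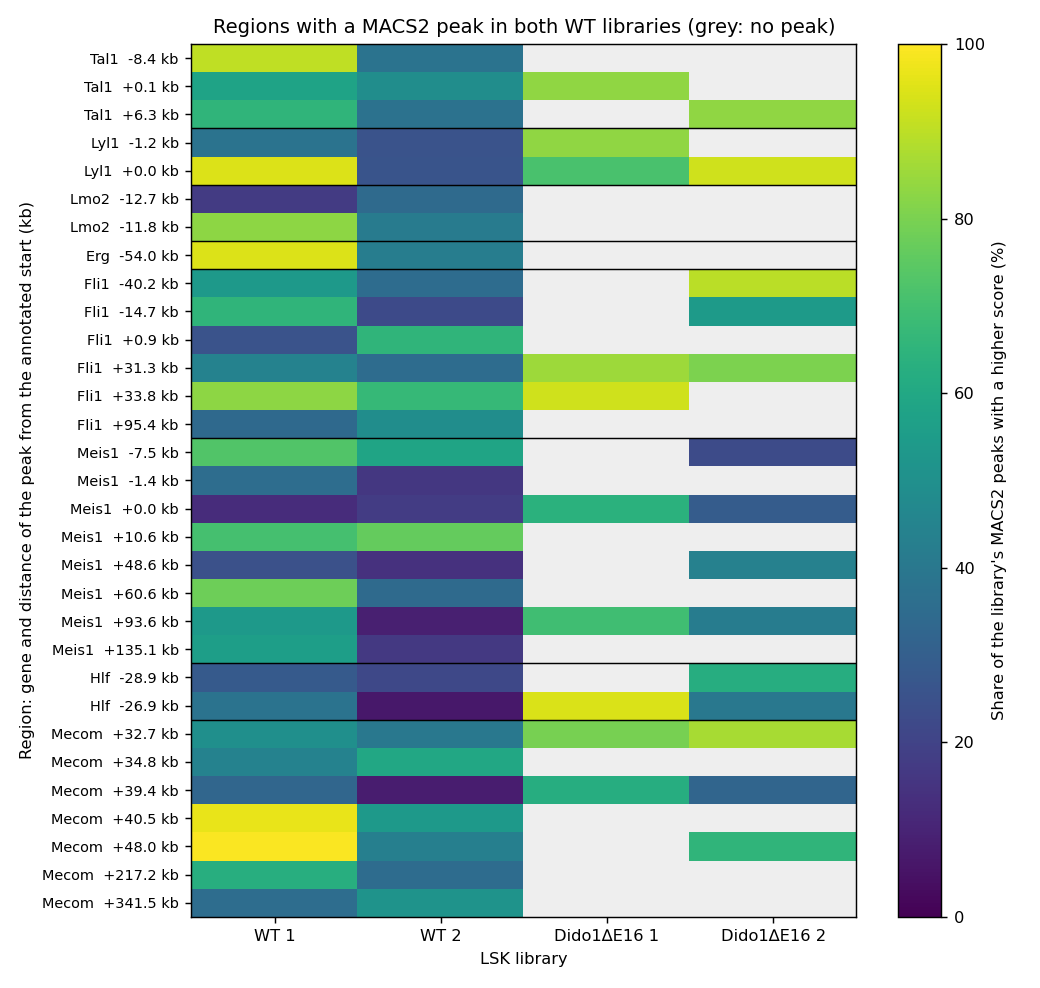
The 31 regions with a MACS2 peak in both WT LSK libraries, in rows by gene and distance from the annotated start in kb, and the 4 libraries in columns. Colour gives the share of the library's MACS2 peaks (in percent, 0 to 100) with a higher score, so that dark cells are the better-scoring peaks, and grey marks no peak, as in both mutant columns of 14 regions.

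The helix-loop-helix genes Lyl1 and Tal1 each had a region at or beside the start site called in a mutant library. At Lyl1, the promoter region chr8:84701229-84701910 was called in all 4 libraries, with MACS2 scores (a caller's measure of how far a peak stands above background) of 15 and 80 in WT and 28 and 14 in Dido1∆E16. The scores overlapped between the genotypes. The Lyl1 upstream region printed above, at -1177 bases from the start (negative distances lie upstream, positive ones downstream) and over an exon of a noncoding Nfix transcript, scored 41 and 81 in WT and 22 in Dido1∆E16 replicate 1, and had no peak in replicate 2. At Tal1, the region over the start site scored 30 and 48 in WT and 22 in Dido1∆E16 replicate 1. Tal1 had a MACS2 peak annotated to the promoter in WT replicate 2 alone. A MACS2 peak annotated to an intron was found in WT replicate 1 and in Dido1∆E16 replicate 1. A region in a 5′ UTR of Tal1, at +6265, scored 27 and 61 in WT and 17 in Dido1∆E16 replicate 2. The region at -8409 scored 17 and 60 in WT and had no mutant peak. HOMER peaks overlapped the Tal1 start region in all 4 libraries, annotated as promoter in WT and as intron in Dido1∆E16, and the region at -8409 in the WT libraries.

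Lmo2 had no MACS2 peak in either mutant library. The upstream region at -12716 scored 65 in both WT libraries, and a second region at -11801 scored 20 and 56. HOMER called both regions in the WT libraries and in Dido1∆E16 replicate 2. The Lmo2 promoters had a MACS2 peak in WT replicate 2 alone.

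Gata2 was covered thinly even in WT. Its promoter had a MACS2 peak in WT replicate 1 alone, with a score of 13, and the intron 4 region printed above had 1 in WT replicate 2 alone, with a score of 41. HOMER peaks annotated to the Gata2 promoter were found in both WT libraries and in neither mutant library, while a HOMER peak of Dido1∆E16 replicate 2 with another annotation overlapped the same region. In intron 4 HOMER called WT replicate 2 and Dido1∆E16 replicate 2. With no region shared by the WT libraries, no share without a mutant peak can be given for Gata2.

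Of the ETS genes, Fli1 had MACS2 peaks in the mutant libraries and Erg had none. Fli1, with 6 and 16 peaks in WT and 2 and 3 in Dido1∆E16, had 1 region called in all 4 libraries, in intron 1 at +31301, with scores of 37 and 64 in WT and 21 and 18 in Dido1∆E16. The region at -14726 scored 27 and 88 in WT and 27 in Dido1∆E16 replicate 2. The regions at +889 and +95381 scored 53 and 35, and 44 and 48, in the WT libraries and had no mutant MACS2 peak. HOMER called the region at +889 in Dido1∆E16 replicate 2 too. Erg had 2 and 10 MACS2 peaks in WT and 0 in both Dido1∆E16 libraries, but the WT libraries shared a single region, at -53985, with scores of 15 and 55. HOMER called that region in Dido1∆E16 replicate 2 as well. The Erg downstream promoter printed above lay under a peak of WT replicate 2 alone, chr16:95459300-95459645, with a score of 37.

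Of the homeobox genes, Meis1 had the most mutant peaks of all 10 genes, 3 and 10, of which 1 and 7 were intergenic. Its promoter was called in all 4 libraries, with scores of 76 and 102 in WT and 32 and 42 in Dido1∆E16, which was exceeded by 12.8% and 17.8% of the peaks in the WT libraries and by 64.1% and 29.0% in the mutant libraries. The lists these shares are taken of differ in length. The intron 8 region printed above, at +93632, was called in all 4 with scores of 32 and 148 in WT and 29 and 33 in Dido1∆E16. The intron 7 region at +48589 scored 54 and 116 in WT and 32 in Dido1∆E16 replicate 2. The region at -1389 scored 43 and 108 in WT and had no mutant MACS2 peak, while HOMER called it in all 4 libraries. All 5 regions of the 10 genes that were called only in mutant libraries, 1 in replicate 1 and 4 in replicate 2, were annotated to Meis1. They were intergenic, at +395176, +389677, +377511, +244827 and -1835 from its start. Their scores were 11 to 22, and 67.9% to 99.3% of the peaks of the same library scored higher. By HOMER none of the 5 was mutant-only, since 4 had no HOMER peak in any library and the other had 1 in WT replicate 2 as well. Hoxa9 had 1 MACS2 peak in all, in its 5′ UTR in WT replicate 2.

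Hlf and Mecom each had a region with a MACS2 peak in all 4 libraries. At Hlf, the region at -26889 scored 41 and 168 in WT and 16 and 34 in Dido1∆E16. In Dido1∆E16 replicate 1, 94.4% of the MACS2 peaks scored higher. HOMER called this region in the WT libraries and in Dido1∆E16 replicate 2, and not in Dido1∆E16 replicate 1. The Hlf upstream region printed above, at -28874, scored 50 and 90 in WT and 24 in Dido1∆E16 replicate 2. Mecom had 7 and 21 peaks in WT and 2 and 3 in Dido1∆E16. The intron 2 region printed above, at +39436, scored 45 and 152 in WT and 33 and 39 in Dido1∆E16. That distance is from the start of a longer transcript. The region lay beside the start of a shorter Mecom transcript, uc008ouv.1, at chr3:30509487 on the minus strand. The Mecom region at +32692 scored 34 and 58 in WT and 24 and 16 in Dido1∆E16. Scores were not tested between libraries, whose median scores ran from 29 to 48.

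The authors' lists of differential regions hold log2 tag counts per library, which do not need a peak to be called in each library but cover only regions that passed the authors' own test. The counts are therefore a description without a test. Of 8540 regions in the longer list, 8534 had a lower mean in Dido1∆E16, so a lower value was the rule for nearly every listed region. The list held 9 regions of Tal1, Lmo2, Meis1, Hlf and Mecom, each with lower values in both mutant libraries than in either WT library, and none of Gata2, Lyl1, Erg, Fli1 or Hoxa9. The shorter list, with 5231 regions, held 6, at the same 5 genes. Of all 18903 genes with a MACS2 or HOMER peak, 30.9% had a peak over a region of the longer list and 22.3% over one of the shorter list. These shares cover genes with few and with many peaks alike.

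The Hlf region at -28478 had the widest gap, with log2 tag counts of 6.76 and 6.63 in WT and 5.16 and 5.84 in Dido1∆E16, a difference of means of -1.19. The Meis1 intron 7 region had 7.07 and 6.81 in WT and 5.87 and 5.91 in Dido1∆E16, a difference of -1.05. Both mutant libraries lay at almost the same level there. The Meis1 intron 8 region had 6.93 and 6.89 in WT and 5.96 and 6.04 in Dido1∆E16, a difference of -0.91. The Lmo2 upstream region had 7.41 and 6.79 in WT and 6.30 and 6.31 in Dido1∆E16, a difference of -0.80. The remaining 5 regions, at Tal1, Meis1, Hlf and Mecom, differed by -0.93 to -0.74. The Meis1 intron 8 and Mecom intron 2 regions and the Hlf region at -26889 thus had MACS2 peaks in all 4 libraries and lower tag counts in the mutant ones.

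**Figure D3:**
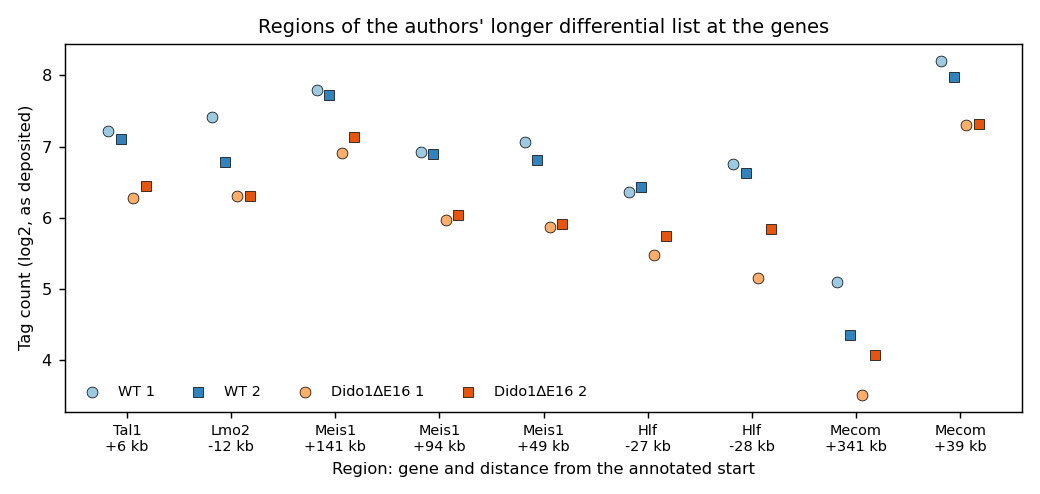
Deposited log2 tag counts (vertical axis) of the 9 regions of the longer list at Tal1, Lmo2, Meis1, Hlf and Mecom (horizontal axis, by distance from the annotated start in kb), 1 point per LSK library. Both Dido1∆E16 points lie below both WT points in all 9 regions, which the list's own test had selected.

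In pre-B cells, Fli1, Lyl1, Lmo2 and Erg had RNA in all 4 libraries, Meis1 in 1 library of each genotype, and the remaining 5 were listed at 0. Gata2, Tal1, Hoxa9, Hlf and Mecom had 0 TPM in every library, as did 39.9% of all genes with a symbol. A value of 0 in these files is what StringTie listed and need not mean that no RNA was present. The 5 genes with a mean of at least 1 TPM were read from a limma fit over 9991 genes on log2(TPM + 1), which understates the change of low genes. The fit called 6 genes higher (0.0601%) and 3 lower (0.03%) in Dido1∆E16, at an adjusted p under 0.05 and a log2 fold change of at least 0.6 in size. None of the 5 was called. At an unadjusted p under 0.05 limma found 1 of the 5, Erg, and 1072 of all genes. The p-values measure the spread between 2 pools per genotype.

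Erg was low in WT and higher in both mutant libraries. It had 13.4 and 7.06 TPM in WT against 106 and 88.8 TPM in Dido1∆E16. The WT mean was 10.2 ± 4.48 (SD, n = 2) and the Dido1∆E16 mean was 97.3 ± 12.1 (SD, n = 2), a ratio of 9.52. The log2 fold change was 3.18 (SE 0.35), and 86 of the 9991 genes had a larger one, but limma's Benjamini-Hochberg adjusted p was 0.198. Across the alternatives the log2 fold change lay between 2.77 and 3.6 and the adjusted p by limma between 0.110 and 0.576. A TPM above both WT libraries in both Dido1∆E16 libraries was also found for 26.7% of the genes tested, and below both for 14.9%. Of the 5 genes, Erg alone had the groups apart under this assignment of symbols, and Meis1 had them apart, lower in Dido1∆E16, when symbols were extended as given below.

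**Figure D4:**
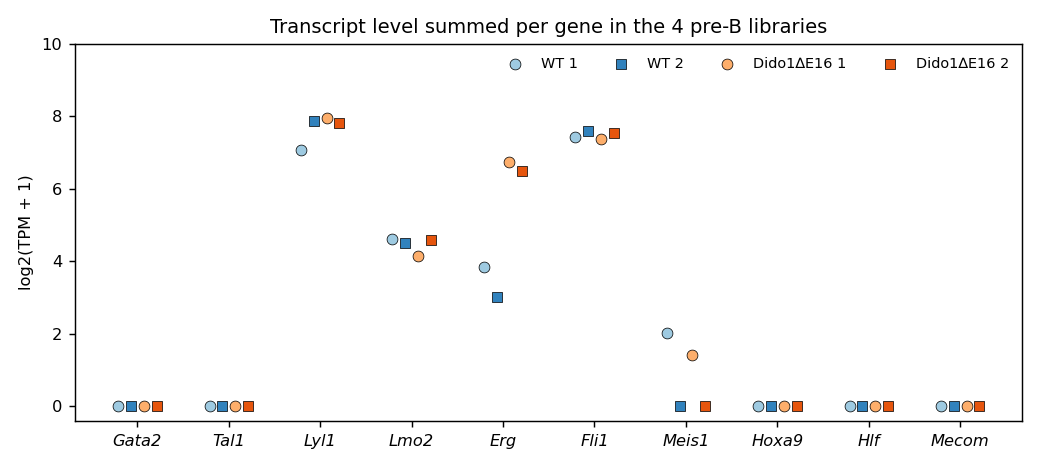
Summed log2(TPM + 1) (vertical axis) of the 10 genes (horizontal axis) in the 4 pre-B RNA-seq libraries, 1 point per library and no error bars. Erg separates the genotypes, at 13.4 and 7.06 TPM in WT and 106 and 88.8 TPM in Dido1∆E16, the Fli1 points lie between 164 and 195 TPM, and 5 genes are listed at 0 throughout.

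The Erg reads lay in the exons shared by its shorter transcripts. StringTie gave most of the TPM to the longest transcript, uc008acd.2, with 12.7 and 7.06 in WT and 102 and 84.8 in Dido1∆E16. Yet exons 1 to 3 of that transcript had a coverage of 0 in all 4 libraries. Its exon 4, chr16:95409735-95409952, had a coverage scaled to TPM of 8.59 and 5.14 in WT and 136 and 135 in Dido1∆E16, and its last exon had 14.0 and 9.45 in WT and 105 and 82.3 in Dido1∆E16. The opening exon of the shorter transcript uc008abz.2, chr16:95459228-95459348 on the minus strand, had 3.01 and 0 in WT and 55.2 and 35.6 in Dido1∆E16. This exon starts at the downstream promoter printed above. StringTie's split between these transcripts is uncertain, since they share most of their later exons.

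**Figure D5:**
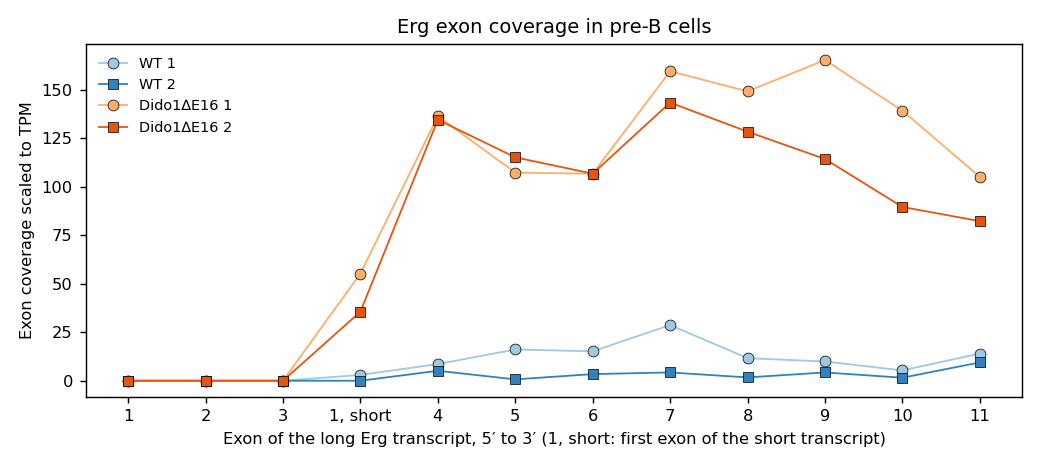
StringTie coverage scaled to TPM (vertical axis) of the 11 exons of the longest Erg transcript and of the opening exon of a shorter one, in order along the gene (horizontal axis), with 1 line per pre-B library. Exons 1 to 3 of the longest transcript are at 0 in all 4 libraries, and the opening exon of the shorter one has 55.2 and 35.6 in Dido1∆E16 beside 3.01 and 0 in WT.

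Markers of other cells that use Erg, and of earlier B cell stages, are given here as values only. Of 5 endothelial markers, 4 had a symbol. Kdr and Emcn were listed at 0 in all libraries, and Cdh5 lay between 3.20 and 3.87 TPM. Pecam1 had 226 and 236 TPM in WT against 258 and 267 in Dido1∆E16. The sum, nearly all of it Pecam1, ranged from 230 to 239 in WT and from 261 to 271 in Dido1∆E16. Of 5 megakaryocyte markers, Pf4 was listed at 0 in all 4 libraries, Ppbp had 12.0 TPM in Dido1∆E16 replicate 2 and was listed at 0 in the others, and Itga2b had 0 and 1.41 TPM in WT against 6.88 and 4.92 in Dido1∆E16. The sum of the 5 was 0 and 1.41 TPM in WT against 6.88 and 18.3 in Dido1∆E16. Of the progenitor markers, Kit was higher in both mutant libraries, as given below, Procr was listed at 0 in all 4 libraries, and Cd34 was at 1.5 TPM in Dido1∆E16 replicate 2 and listed at 0 in the others. The mast cell and basophil markers summed to 0 in both WT libraries and to 2.68 and 27.5 TPM in Dido1∆E16. The erythroid and myeloid sums given above were higher in Dido1∆E16 replicate 2 than in replicate 1. Some genes of earlier B cell stages had higher values in both mutant libraries than in either WT library. Vpreb1, a part of the surrogate light chain, had 108 and 40.9 TPM in WT against 1222 and 738 in Dido1∆E16, and Dntt, the terminal transferase, had 48.7 and 7.18 in WT and 191 and 96.0 in Dido1∆E16. In a list of 9 such genes, chosen after their values were seen, 6 lay above WT in both mutant libraries and limma called 0, with 5 at an unadjusted p under 0.05. The remaining 3, Il7r, Cd93 and Sox4, overlapped between the genotypes, with log2 fold changes of 0.20, -0.10 and 0.13. The part of cell composition in the Erg value was not tested.

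Fli1 and Lyl1 were the most abundant of the 10 in the pre-B libraries. Fli1 had 172 and 195 TPM in WT against 164 and 185 in Dido1∆E16, and the groups overlapped. Its log2 fold change was -0.07 (SE 0.13), with an adjusted p of 0.886 by limma. Lyl1 had 134 and 236 TPM in WT against 247 and 227 in Dido1∆E16, a log2 fold change of 0.41 (SE 0.31, limma adjusted p = 0.699). WT replicate 1 alone stood apart there, and without it the log2 fold change of Lyl1 was 0.0053. The levels of Fli1 and Lyl1 in WT did not differ beyond the spread between the libraries.

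Lmo2 followed at 23.6 and 21.9 TPM in WT against 16.7 and 23.3 in Dido1∆E16, all given to transcript uc012cal.1. Its log2 fold change was -0.19 (SE 0.23), with an adjusted p of 0.797 by limma, and the groups overlapped. Meis1 had 3.10 and 0 TPM in WT against 1.69 and 0 in Dido1∆E16, each from another transcript. Its log2 fold change of -0.31 had an SE of 1.04 and an adjusted p of 0.943 by limma. When transcripts without a symbol were given that of a gene sharing their exons, Meis1 had 3.10 and 5.75 TPM in WT against 1.69 and 0 in Dido1∆E16. The values of Meis1 are too low to be read further.

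None of the partners of these factors that were tested was called. Of 18 partners and co-factors, 13 were tested, limma called 0 in either direction, and 1 had an unadjusted p under 0.05. Their median log2 fold change was -0.022, beside 0.074 over all 9991 genes. The highest were Tcf4, an E-protein, at 0.55, with 33.5 and 42.7 TPM in WT against 60.4 and 51.6 in Dido1∆E16, and the corepressor gene Ctbp1 at 0.46. The lowest were Cbfb, which encodes the partner of RUNX1, at -0.25, and Ssbp3, a partner of LDB1, at -0.19. Ldb1 itself, which joins LMO2 to its complex, had 183 and 167 TPM in WT against 216 and 167 in Dido1∆E16. Tcf3, the E-protein gene E2A, was seen only when symbols were extended by shared exons, with 1141 and 912 TPM in WT against 1254 and 1208 in Dido1∆E16.

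Of 18 paralogs, 7 were tested, limma called 0, and 1 had an unadjusted p under 0.05. The median log2 fold change was -0.17, and 0.14 with 9 tested after symbols were extended. That gene was Lmo4, with 831 and 841 TPM in WT against 602 and 529 in Dido1∆E16, a log2 fold change of -0.57 (limma adjusted p = 0.315). Ets2 had the lowest value, -0.96, but only WT replicate 2 was high, with 64.1 and 217 TPM in WT against 61.6 and 59.1 in Dido1∆E16. The highest were Hoxb4 at 0.54 and Dbp, a PAR bZIP gene like Hlf, at 0.18. With extended symbols the highest was Meis3 at 2.55 (limma adjusted p = 0.250), with 0 TPM in WT against 7.05 and 3.29 in Dido1∆E16. The ETS gene Etv6 followed at 0.70 (limma adjusted p = 0.341), with 23.1 and 25.1 TPM in WT against 45.7 and 34.5 in Dido1∆E16. Ets2 and Lmo4 stayed the lowest.

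Of 18 stem and progenitor genes, 7 were tested, limma called 0, and 1 had an unadjusted p under 0.05, which was Kit. Their median log2 fold change was -0.12. Kit, the stem cell factor receptor, had 1.55 and 0.335 TPM in WT against 9.74 and 9.06 in Dido1∆E16, a log2 fold change of 2.49 (limma adjusted p = 0.289). Nfe2, an erythroid and megakaryocyte factor, came next at 2.01, with 0 and 3.35 TPM in WT against 2.67 and 18.3 in Dido1∆E16. The lowest were Mycn at -0.51 and Myb at -0.38. Eng, an endothelial and stem cell receptor gene, was seen only with extended symbols, at 4.46 and 1.98 TPM in WT against 25.6 and 23.2 in Dido1∆E16 (log2 fold change 2.65, limma adjusted p = 0.195). Ly6a, which encodes Sca1, was likewise seen only then and had the lowest value of that list, -2.80, with 22.3 and 13.7 TPM in WT against 6.11 and 0 in Dido1∆E16.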

How the data were processed

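ATAC-seq of LSK cells and RNA-seq of pre-B cells were analysed, with 2 libraries per genotype each by the labels. The methods of the paper name 3 ATAC-seq replicates, and those in the labels were used. For ATAC-seq the authors aligned reads to GRCm38/mm10 (BWA 0.7.15 among the tools named), removed duplicates, called the peaks of every library by MACS2 and by HOMER, removed blacklisted regions and annotated peaks with ChIPseeker. The deposited peak files hold a MACS2 score and the width of each peak in bp. The authors' deposited lists of differential regions hold log2 tag counts per library, whose transform and normalization are not given in the sources used here. For RNA-seq the authors ran StringTie 2.0 on UCSC known genes, and each deposited file lists transcripts with their coverage, FPKM and TPM and no read counts, so that the RNA depth is unknown. Columns of the authors' own comparisons hold fold changes and p-values from edgeR and DESeq2 and were not used.

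An overlap of 1 bp sufficed, and only the autosomes, X and Y were used. TPM was summed per gene over the 30124 of 63753 transcripts with a symbol in the authors' annotation (75.0% to 76.7% of the TPM), and log2(TPM + 1) of genes with a mean TPM of at least 1 was fitted by genotype with limma 3.58.1 in R 4.3.3 (eBayes with a trend, no block, Benjamini-Hochberg). The peak overlap, motif search and limma scripts were tested on simulated data. Other tools were matplotlib 3.10.9, scipy 1.17.1, numpy 2.4.6 and pandas 2.3.3 under Python 3.11.15. Reference sequence was RefSeq GRCm38.

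The members and lists were chosen with earlier results of these data known. The genes named are all members, and of each list the called genes and the 2 highest and 2 lowest log2 fold changes. Ldb1, Tcf3, Lmo4, Meis3, Etv6, Eng, Ly6a, the marker genes and the 9 early B genes were named after their values were seen. The window of 400 bases, the sequences printed and the symbols extended by shared exons were also chosen after seeing the data. Alternatives were HOMER peaks, equal numbers of best-scoring peaks, the better-scoring 50%, a 50% overlap, another pseudocount (0.1), no filter, FPKM, median-centring, eBayes without a trend, a replicate block and leaving out each library.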

Additional observations from a re-analysis of the deposited data

How the results depend on the processing

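Of 114 alternatives computed for the results above, 87 were labelled as kept, 21 as moved and 6 as reversed, and no alternative called a member. Fold changes were kept with the same sign and side of the threshold, and the share of regions within its binomial interval. Counts were kept within a set ratio, so 6 members becoming 9 without WT replicate 1, beside 74.1% of all genes, was kept. Peaks per 1000 were kept with the same sign where tested, so -0.697 beside -0.328 was kept. Where not tested, they were kept within the spread between libraries. The label is therefore a loose one. Libraries differed in tags and in peaks called, and the peak number did not follow the tags. With 2 libraries per genotype no exact permutation test reaches 0.05, and the RNA files hold no counts. The cause of the changes below was not tested.

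The number of genes called higher in pre-B cells was 6, and it became 0 with a pseudocount of 0.1, 0 without a filter on low values, 57 with eBayes without a trend, 3 with symbols extended by shared exons, and 0 to 260 when 1 library was left out (0 without WT replicate 1 or 2, 260 without Dido1∆E16 replicate 1 and 258 without Dido1∆E16 replicate 2). The number called lower was 3, and it became 0 with a pseudocount of 0.1, 0 without a filter, 12 without a trend and 0 to 4 when 1 library was left out (0 without WT replicate 1 or 2). The lone library of a genotype is then assumed to vary like the others. With the replicate number as a block, 0 genes were called higher and 0 lower, with 714 at an unadjusted p under 0.05. Same-numbered libraries deviated together with a correlation of only 0.049 over genes in 2 pairs, so the numbers were not taken to pair the pools, and the block changed no member's call.

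The count of members with fewer peaks in both Dido1∆E16 libraries, 6, became 3 with HOMER peaks (19.5% of all genes). With equal numbers of best-scoring peaks it became 0 (7.16%). When 1 library was left out, it was 9 without WT replicate 1 (74.1% of all genes) and 6 to 8 without another (37.1% to 44.1%). The share of regions without a mutant peak, 45.2%, became 16.7% with equal numbers of best-scoring peaks (1 of 6 regions, beside 13.3% of all regions) and 48.5% to 78.2% when 1 library was left out, the last without WT replicate 1, where it was 69.9% of all regions. The difference in peaks per 1000 became 0.167 when promoters were left out. Log2 fold changes near 0 changed sign when 1 library was left out. Fli1 ranged from -0.16 to 0.021, with 0.021 without WT replicate 2 and 0.016 without Dido1∆E16 replicate 1. Lmo2 ranged from -0.42 to 0.038, the latter without Dido1∆E16 replicate 1. Meis1 ranged from -1.32 to 0.71, with 0.71 without WT replicate 1 and 0.41 without Dido1∆E16 replicate 2.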
